A study of Mus musculus with 72 samples.

Results

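Klf4 occupancy was measured by chromatin immunoprecipitation and sequencing (ChIP-seq) in mouse embryonic stem cells (ESCs) that carried both HMGN genes or lacked them. The members described here are the peaks of the 4 Klf4 libraries, 2 from wild-type cells (WT, Hmgn1+/+n2+/+) and 2 from double knockout cells (DKO, Hmgn1-/-n2-/-), all of strain C57BL/6. Peaks that overlapped by at least 1 bp were joined into 8980 Klf4 sites. These lists are 4 of the 64 peak lists of a series with 1156918 peaks in all, which covers 15 other combinations of cell type and antibody in ESCs, embryonic fibroblasts and splenic B cells. The 2 libraries of a genotype are biological replicates by the study's account. How many independent lines stood behind a genotype is not given in the sources used here, so a difference between the genotypes cannot be told apart from a difference between lines.

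HMGN1 and HMGN2 are small proteins that bind nucleosomes without regard to DNA sequence and that compete with linker histone H1 for chromatin. Klf4 is a zinc finger transcription factor of the Krüppel-like family that binds GC-rich CACCC-type elements, and in ESCs it acts downstream of LIF and STAT3 to help hold the naive pluripotent state together with Oct4, Sox2, Nanog, Esrrb, Klf2 and Klf5. It is also a reprogramming factor, able to bind its element on nucleosomal DNA. The comparison of WT with DKO asks where Klf4 sat when the HMGN proteins were absent.

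The labelled cell type was checked against marker genes. All 7 ESC marker genes (Pou5f1, Sox2, Nanog, Esrrb, Zfp42, Klf2 and Tfcp2l1) had a Klf4 site within 50 kb in each of the 4 libraries, and none of the 5 fibroblast markers (Col1a1, Col1a2, Thy1, Acta2 and Twist1) had one in any library. Over all 22225 protein-coding genes 4852 had a site in at least 1 library, so the absence at 5 genes says little by itself. Both marker sets are parts of longer lists described below, in which Vim and Snai1, also mesenchymal genes, had sites called in all 4 libraries and 6 of 22 naive pluripotency genes had none. No Klf4 peak lay in or within 1000 bp of Hmgn1 or Hmgn2 in any library, so the lists hold no direct check of the deletions. Depth could be read only indirectly, from the lowest background solved from the peak statistics, which was 1.12 and 1.19 reads in WT and 1.43 and 1.57 in DKO. By this indirect measure the DKO libraries were the deeper pair, but no read totals or fragment lengths were at hand to check it.

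Sequence under the sites carried the Klf4 element. The general form CCNCNCCC, looked for in either orientation up to 100 bp from the summit, was present at 68.3% of the sites called in all 4 libraries, against 18.2% of windows of the same length 5000 bp away and 45.5% of windows centred on protein-coding starts. The stricter form CCACACCC, which is contained in the general form, was present at 24.8% against 1.94% and 2.26%. A match describes letters only and does not show that the element was bound.

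The following 12 windows of 101 bases, centred on the summit, show sites that the results below turn on, and each of them except that of Zfp42 holds the element. They were read from the mm9 assembly on the plus strand, in lower case with matches to CCNCNCCC or its reverse complement in capitals. The first 6 were called in all 4 libraries and comprise a repeated CCACACCC array in an intron of Atrnl1 and sites of 5 pluripotency genes. The Ube2r2 and Zbtb44 windows were called in WT alone, and the Ccdc61 and Gatsl3 windows in DKO alone. The last 2 were called throughout and showed a higher (Acot8) or lower (Cldn14) fold enrichment in DKO.
Atrnl1, 47776 bp downstream of the start, chr19:57733250-57733350: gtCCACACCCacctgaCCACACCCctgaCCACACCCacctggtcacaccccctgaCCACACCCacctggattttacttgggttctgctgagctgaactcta
Nanog, 4819 bp upstream, chr6:122652638-122652738: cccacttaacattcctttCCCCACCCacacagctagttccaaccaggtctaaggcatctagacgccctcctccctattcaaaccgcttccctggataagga
Pou5f1, 1968 bp upstream, chr17:35640964-35641064: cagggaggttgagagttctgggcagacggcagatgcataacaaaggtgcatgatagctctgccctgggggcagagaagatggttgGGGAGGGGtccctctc
Nr5a2, 153 bp upstream, chr1:138850310-138850410: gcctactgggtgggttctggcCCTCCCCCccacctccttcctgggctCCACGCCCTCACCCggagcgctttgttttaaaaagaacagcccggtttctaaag
Tdgf1, 41 bp upstream, chr9:110848653-110848753: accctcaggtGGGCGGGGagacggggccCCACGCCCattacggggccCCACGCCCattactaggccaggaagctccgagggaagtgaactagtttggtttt
Zfp42, 14006 bp upstream, chr8:44406319-44406419: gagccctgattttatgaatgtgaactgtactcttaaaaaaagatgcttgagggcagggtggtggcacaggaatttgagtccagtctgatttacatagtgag
Ube2r2, 21392 bp downstream, chr4:41104118-41104218: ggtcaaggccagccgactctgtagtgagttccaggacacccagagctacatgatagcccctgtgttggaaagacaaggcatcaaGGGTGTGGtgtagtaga
Zbtb44, 20343 bp upstream, chr9:30817836-30817936: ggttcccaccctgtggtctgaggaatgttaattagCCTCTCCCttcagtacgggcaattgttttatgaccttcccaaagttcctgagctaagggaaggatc
Ccdc61, 98 bp upstream, chr7:19495812-19495912: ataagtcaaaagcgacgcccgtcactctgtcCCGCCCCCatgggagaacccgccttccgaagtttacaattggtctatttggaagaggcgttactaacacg
Gatsl3, 178 bp upstream, chr11:4118000-4118100: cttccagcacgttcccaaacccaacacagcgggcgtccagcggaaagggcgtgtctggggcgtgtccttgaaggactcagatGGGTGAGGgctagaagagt
Acot8, 59 bp upstream, chr2:164630391-164630491: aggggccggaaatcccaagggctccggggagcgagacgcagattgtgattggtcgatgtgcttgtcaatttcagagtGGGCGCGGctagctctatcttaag
Cldn14, 4707 bp upstream, chr16:94013739-94013839: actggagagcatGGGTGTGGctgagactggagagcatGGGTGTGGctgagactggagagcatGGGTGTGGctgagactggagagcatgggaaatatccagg

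The number of Klf4 peaks did not separate the genotypes. WT replicate 1 had 5545 peaks and WT replicate 2 had 4003, while DKO replicate 1 had 4859 and DKO replicate 2 had 5924. The ranges overlapped, because WT replicate 1 lay between the DKO libraries and WT replicate 2 was the shortest list of all. The log2 change from WT to DKO was 0.19 (SE 0.23, 95% interval -0.54 to 0.91, n = 2 per genotype), with an adjusted p of 0.471 in a limma fit over 16 antibodies. In that fit 75% of the antibodies passed the threshold of 0.05, and Klf4 was not among them. Without WT replicate 2 the change was -0.048, with its direction turned.

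Neither the peaks near starts nor those far from them passed the test. Within 1000 bp of a protein-coding start there were 1394 and 818 peaks in WT and 1175 and 1466 in DKO, a log2 change of 0.30 (SE 0.34, limma adjusted p = 0.436, 68.8% of antibodies called). Farther away there were 4151 and 3185 peaks in WT and 3684 and 4458 in DKO, a change of 0.16 (SE 0.20, limma adjusted p = 0.482, 81.2% called). Subtracting the distal from the promoter change left 0.14 (SE 0.15, limma adjusted p = 0.472, 56.2% called). This last value depended on which WT library was kept. It was 0.33 without WT replicate 1 (limma adjusted p = 0.0376) and -0.052 without WT replicate 2, where the lone WT library is assumed to vary like the libraries of the other antibodies.

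As shares of each list, the promoter peaks made up 25.1% and 20.4% in WT and 24.2% and 24.7% in DKO. The low value belonged to WT replicate 2, and the other 3 libraries lay within a narrow band. The KLF element was found at 68.7% and 65.5% of WT peaks and at 66.1% and 66.7% of DKO peaks, so the DKO values fell between those of WT. With 2 libraries against 2, an exact two-sided permutation test cannot give a p below 0.333, and for these shares it gave 1.

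Of the 8980 sites, 2310 (25.7%) were called in all 4 libraries. Sites shared by the WT replicates and missing from DKO numbered 286 (WT-only, 3.18% of sites), and those shared by the DKO replicates and missing from WT numbered 548 (DKO-only, 6.1%). Many sites were called in a single library, with 1156 in WT replicate 1, 502 in WT replicate 2, 672 in DKO replicate 1 and 1301 in DKO replicate 2. The 2-library patterns that crossed the genotypes held between 86 and 447 sites, so the DKO-only class was larger than each of them and the WT-only class lay within their range. No test is given for these counts, since presence in a list is a threshold call.

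**Figure D1:**
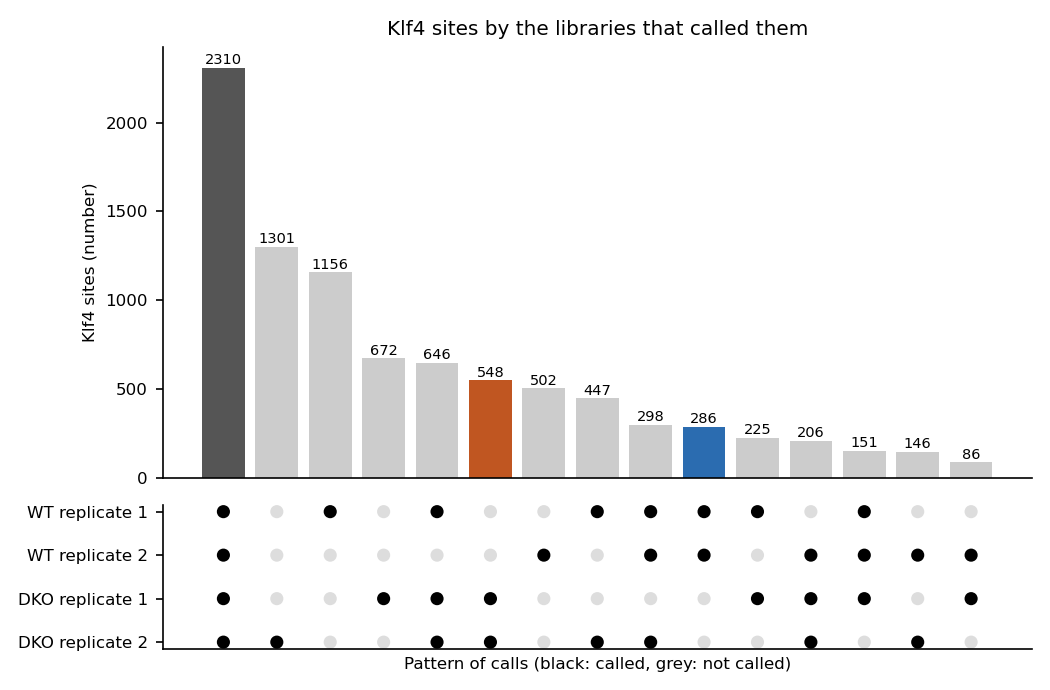
Number of Klf4 sites (y axis) for each of the 15 patterns of calls over the 4 libraries (x axis, black dots mark the libraries that called the site). The dark grey bar is the 2310 sites called in all 4 libraries, the orange bar the 548 DKO-only sites and the blue bar the 286 WT-only sites, and the light grey bars are the other patterns, of which the largest are single-library calls.

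The DKO-only and WT-only counts were closer at equal list length. When the same number of peaks (4003) was taken from the top of each list, 321 WT-only and 355 DKO-only sites were found. The part of list length in the counts was not tested further. Leaving out a library eases the call for its own genotype to 1 list while the other still needs 2. The class of the other genotype then needs absence from only 1 list. Both classes are thus enlarged by construction. Without WT replicate 1 there were 791 WT-only and 1194 DKO-only sites, and without WT replicate 2 there were 1443 and 755, the other order. Without DKO replicate 1 the counts were 436 and 1853, and without DKO replicate 2 they were 584 and 1231.

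Over the libraries that called them, sites of a single genotype had a median mean -log10 p of 11.7 (WT-only) and 12.1 (DKO-only). The median was 19.7 for sites called in all 4 libraries and 10.2 for single-library sites. Over all 8980 sites, of which 40.4% were single-library sites, it was 12.3. The 3045 sites shared by the WT replicates were ranked by their mean -log10 p and split into 4 groups of equal size. Of the weakest group 22.8% had no call in DKO, against 10.4%, 3.81% and 0.526% (4 of 761 sites) in the stronger ones. The weakest group held 174 of the 286 WT-only sites. The 3710 sites shared by the DKO replicates gave 33.1%, 19%, 6.36% and 0.647% (6 of 928 sites) without a call in WT. Their weakest group held 307 of the 548 DKO-only sites. Of the strongest group, 98.0% of the WT sites and 96.2% of the DKO sites were called in both libraries of the other genotype.

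The strongest site of all was at AW549877, 216 bp upstream of the start on chr15:3945699-3946192, with fold enrichments of 43.9 and 39.0 in WT and 47.3 and 51.2 in DKO. The Atrnl1 site with the repeated CCACACCC element had 42.3 and 52.3 in WT and 31.8 and 30.7 in DKO. Hk2, the gene of a glycolytic hexokinase, had a promoter site 119 bp upstream with 28 and 26.5 in WT and 19.8 and 20.1 in DKO. The other 2 of the 5 strongest sites lay 5927 bp upstream of Srbd1 and in an intron 13726 bp upstream of the nearest start of Itga9, the gene of an integrin subunit. At none of these 5 sites did the fold enrichment pass the limma test between the genotypes, with adjusted p-values from 0.18 to 0.654.

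Among WT-only sites, the strongest lay in an intron of Ube2r2, which encodes a ubiquitin-conjugating enzyme, with fold enrichments of 13.4 and 11.6 in the WT libraries. It was followed by intergenic sites nearest to Mms22l and Gm9257, at 874030 and 357954 bp from the start, by the Zbtb44 site shown above, by an intronic site of C230052I12Rik and by a site 1818635 bp from Gm10110. None of the 6 lay within 1000 bp of a start and all 6 overlapped a Nanog site, where over all 286 WT-only sites the shares were 21.0% and 89.2%.

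Of the 6 strongest DKO-only sites, 3 lay at promoters and 4 overlapped a Nanog site, where over all 548 DKO-only sites the shares were 28.6% and 82.5%. With 6 sites of each class, these counts do not tell the classes apart. The promoter sites were 61 bp upstream of Nf2, the gene of the tumour suppressor merlin, with 10.6 and 11.3 in the DKO libraries, 98 bp upstream of Ccdc61 with 4.87 and 12.4, and 178 bp upstream of Gatsl3 with 6.24 and 9.86. The DKO replicates differed by more than 1.5 times at the last 2. The remaining sites were nearest to Csda, Siglec5 and Hlx, a homeobox gene whose start lay 235213 bp away.

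The 3 classes shared most of their properties and differed in a few. Promoters held 21.0% of the sites called in all 4 libraries (exact 95% interval 19.4 to 22.8, n = 2310), 21.0% of WT-only sites (16.4 to 26.2, n = 286) and 28.6% of DKO-only sites (24.9 to 32.6, n = 548). Over all 8980 sites the promoter share was 25%, and over the 3631 sites called in a single library it was 26.1%, so the DKO-only share lay nearer to these than to that of the sites called in all 4. The promoter sites of the 3 classes belonged to 477, 60 and 157 genes. By summit, 58.7%, 57.3% and 62.8% of the sites were intergenic, 36.2%, 36.7% and 32.3% intronic and the rest exonic. The median GC content within 100 bp was 51.7%, 52.0% and 52.2%, and the KLF element was present at 68.3%, 69.9% and 61.7%. Over all sites the element was present at 65.6%, and over single-library sites at 62.0%, close to the DKO-only share. The intervals treat sites as independent and cover counting error only.

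The higher promoter share of DKO-only sites depended on WT replicate 2. Without that library, when WT-only sites rest on 1 list, the promoter share was 27.8% for WT-only and 26.4% for DKO-only sites. Leaving out any of the other 3 libraries kept the DKO-only share higher, at 26.9% to 30.2% against 19.3% to 21.9%.

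**Figure D2:**
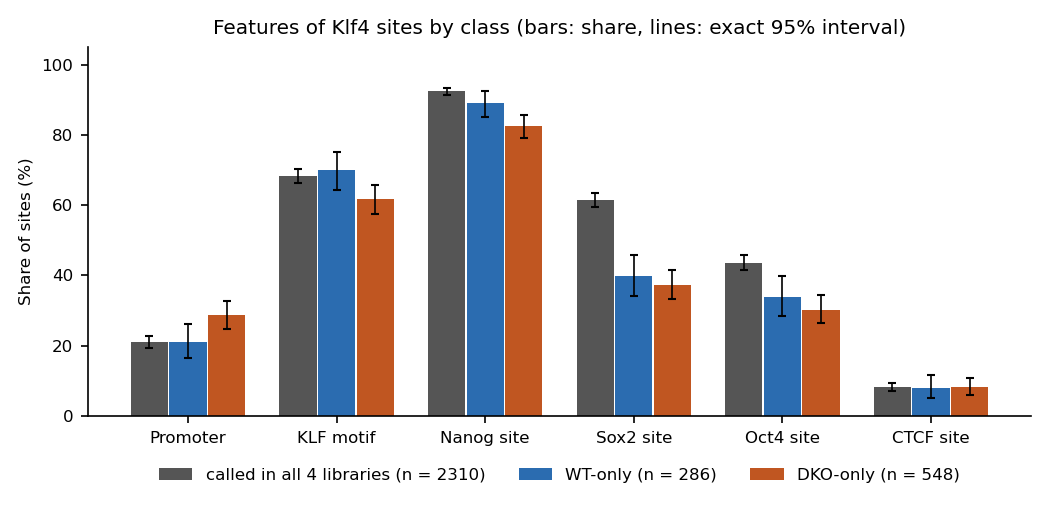
Share of Klf4 sites (y axis, %) that lay within 1000 bp of a protein-coding start, held the KLF element CCNCNCCC, or overlapped a site of Nanog, Sox2, Oct4 or CTCF, for sites called in all 4 libraries (grey), WT-only (blue) and DKO-only sites (orange). Bars are shares and lines exact 95% intervals: Sox2 sites covered 61.6% of the sites called in all 4 libraries and 39.9% and 37.2% of the WT-only and DKO-only sites, while CTCF sites covered about 8% of each class.

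Most Klf4 sites overlapped a Nanog site, and smaller shares overlapped Sox2 or Oct4 sites. Nanog, a homeodomain factor of the naive state, had a site called in both libraries of a genotype at 92.4% of the Klf4 sites called in all 4 libraries, at 89.2% of WT-only and at 82.5% of DKO-only sites. Sox2, an HMG-box factor, was present at 61.6%, 39.9% and 37.2%, while the share was 42.4% over all sites and 31.0% over single-library sites. Oct4, the POU factor that pairs with Sox2, was present at 43.6%, 33.9% and 30.3%. Over all 8980 sites the Nanog share was 82.9% and the Oct4 share 32.2%, close to those of the DKO-only sites. CTCF, the architectural zinc finger protein, was present at 8.31%, 8.04% and 8.21%. All of Oct4, Sox2 and Nanog met at 39.4% of the sites called in all 4 libraries, at 28% of WT-only and at 23.4% of DKO-only sites, and 6.06%, 9.09% and 15.3% had none of the 4 factors.

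Seen from the other side, the shares were lower. The 8980 Klf4 sites were fewer than the sites of each factor, which limits these shares. Any Klf4 site was found at 26.9% of 13996 Sox2 sites, 12.5% of 58227 Nanog sites, 12.2% of 23035 Oct4 sites and 1.21% of 63338 CTCF sites. Where sites coincided, the summits were closer for Nanog, Sox2 and Oct4 than for CTCF. At sites called in all 4 Klf4 libraries the median distance to the nearest summit of the factor was 15 bp for Nanog and for Sox2, 30 bp for Oct4 and 123 bp for CTCF.

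Promoter and distal Klf4 sites kept different company. Of the 486 promoter sites called in all 4 libraries, 18.1% overlapped a Sox2 site and 18.7% an Oct4 site, against 73.2% and 50.3% of the 1824 distal sites. CTCF went the other way, with 15% at promoters and 6.52% at distal sites. The form CCACACCC was found at 14.0% of promoter and 27.7% of distal sites, and CCACGCCC at 20.2% and 7.79%. CCACGCCC was itself more frequent at starts, in 4.11% of windows centred on protein-coding starts against 0.964% of windows 5000 bp from the sites. At promoter sites of the DKO-only class the Sox2 share was 3.18% (5 of 157), and at those of the WT-only class 11.7% (7 of 60), against 225 of 2246 over all promoter sites and 68 of 949 (7.17%) over single-library ones.

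Peaks of Nanog, Sox2 and Oct4 themselves covered more of the Klf4 sites in both DKO libraries than in either WT library, in each of the 3 classes. At the 2310 sites called in all 4 Klf4 libraries, Oct4 peaks were found at 25.8% and 27.2% in the WT Oct4 libraries and at 45.8% and 49.4% in DKO. Sox2 peaks were found at 52.4% and 52.9% in WT and 63.2% and 64.8% in DKO, and Nanog peaks at 86.4% and 88.5% against 93.5% and 93.9%. In percentage points the CTCF shares were closest, at 7.45% and 7.84% against 8.66% and 8.35%.

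WT-only Klf4 sites showed the same order. Although Klf4 was called there in WT alone, Oct4 peaks covered 17.8% and 21.0% of them in WT and 36.0% and 37.4% in DKO, and Sox2 peaks 29.7% and 27.6% in WT and 42.0% and 42.3% in DKO. Over all 8980 Klf4 sites the shares were near these, with Oct4 at 18% and 19.4% in WT and 33.8% and 36.5% in DKO and Sox2 at 34.4% and 33.8% against 43.9% and 46.0%. At DKO-only sites Oct4 peaks covered 15.1% and 15.9% in WT and 30.8% and 32.5% in DKO. The lists of these factors were longer in DKO, with 11140 and 12627 Oct4 peaks in WT and 26742 and 30864 in DKO, 10324 and 10222 Sox2 peaks against 16174 and 17144, and 52307 and 53524 Nanog peaks against 62697 and 64486. The part of list length in these shares was not tested.

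**Figure D3:**
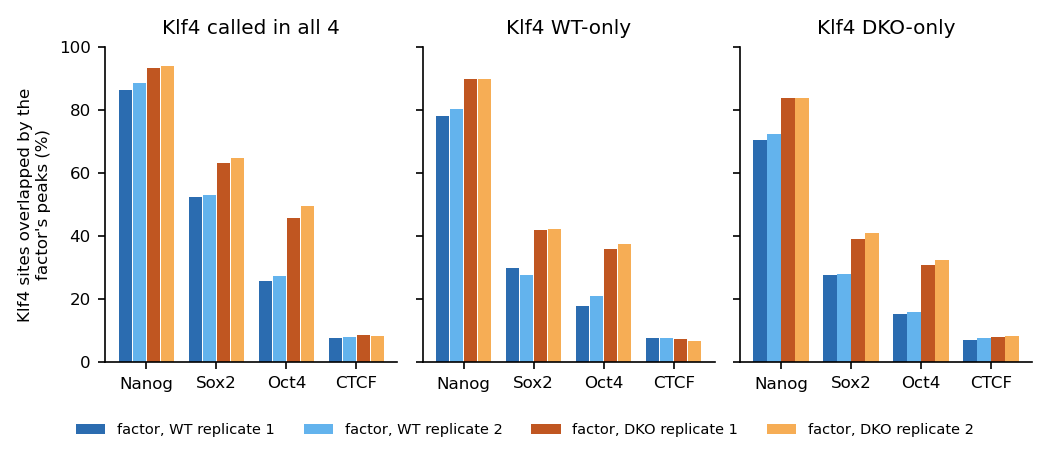
Share of Klf4 sites (y axis, %) overlapped by peaks of Nanog, Sox2, Oct4 and CTCF in each library of that factor (2 WT in blue, 2 DKO in orange), for Klf4 sites called in all 4 libraries, WT-only and DKO-only sites. In each panel both DKO bars stand above both WT bars for Nanog, Sox2 and Oct4, and at WT-only Klf4 sites the CTCF bars lie between 6.64% and 7.69%.

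The height of Klf4 peaks could be compared at the 2310 sites called in all 4 libraries. The fold enrichment, the summit pileup over the local background, had a median of 8.65 and 7.76 in WT and of 7.66 and 7.85 in DKO. The median log2 change was -0.08. In a limma test over all 2310 sites, 33 sites were higher in DKO (1.43%) and 57 were lower (2.47%) at an adjusted p of 0.05.

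The share of higher calls depended on the scaling. When each library was centred on its median site, 91 sites were higher and 80 lower, so that higher calls made up 53.2% of the calls in place of 36.7%. When the summit pileup was divided by the library's lowest background, and the local background was left out, no site was higher and 1 was lower by limma, with 62 higher and 110 lower at an unadjusted p of 0.05. Without WT replicate 2 the counts were 46 and 141, and without WT replicate 1 they were 55 and 48. Leaving out DKO replicate 1 gave 14 and 29, and leaving out DKO replicate 2 gave 14 and 34.

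The local background is the divisor of the fold enrichment, so at a given pileup a higher background gives a lower fold enrichment. Across the 2310 sites, which share libraries, the log2 background correlated more strongly within genotypes (Pearson's r = 0.83 in WT and 0.84 in DKO) than between them (0.25 to 0.26), while summit pileups correlated alike within genotypes (0.76 and 0.81) and between them (0.74 to 0.76). At the 57 lower sites the scaled background had a median log2 change of 1.2 and the scaled pileup -0.38, and at the 33 higher sites these were -1.09 and 0.33. Over all 2310 sites they were 0.19 and -0.04. The labels give 1 input of each sequencing type per genotype, so the backgrounds of replicates may share an input and are then not independent. The limma test on fold enrichment treats replicates as independent, and its p-values may then be too small.

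**Figure D4:**
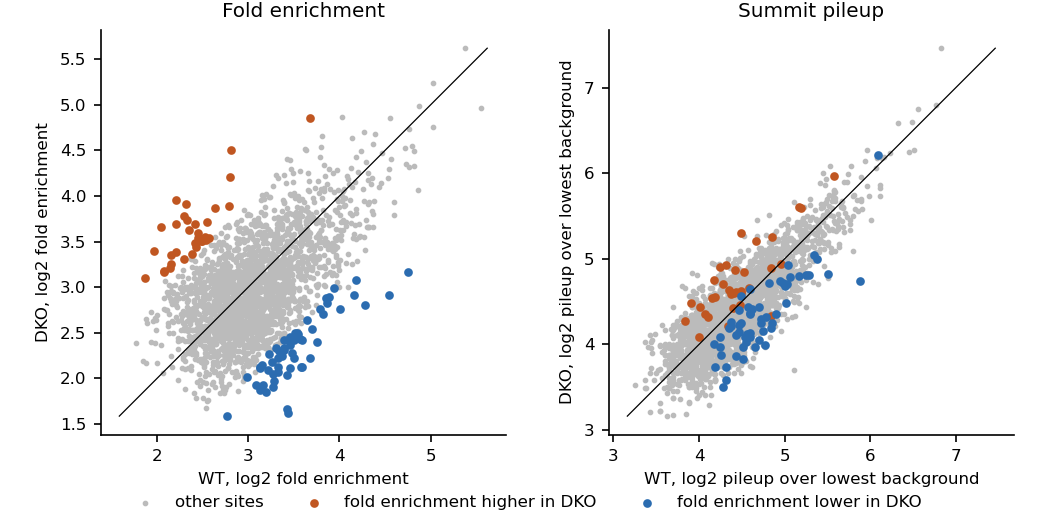
Mean log2 fold enrichment (left) and mean log2 summit pileup over the lowest background of the library (right) in WT (x axis) and DKO (y axis) at the 2310 Klf4 sites called in all 4 libraries, with the line of equality. The 33 sites with a higher (orange) and 57 with a lower (blue) fold enrichment in DKO stand apart on the left and lie close to the other sites on the right.

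Promoters held 39.4% of the 33 higher sites, 13 in number, against 21.0% of all 2310 sites, and 3 of the 5 largest rises in fold enrichment were among them. Of the same 33 sites 51.5% held the KLF element, 18.2% overlapped a CTCF site and 30.3% an Oct4 site, against 68.3%, 8.31% and 43.6% of all 2310. These shares rest on few sites and were not tested. At Acot8, which encodes a peroxisomal acyl-CoA thioesterase, the site 59 bp upstream of the start had 4.61 and 4.67 in WT and 15.9 and 15.3 in DKO, a log2 change of 1.75 (SE 0.26, limma adjusted p = 0.00186). Its summit pileups were 25 and 27 reads in WT and 58 and 60 in DKO, and its local backgrounds 4.64 and 5 against 2.72 and 2.99. The scaled pileup changed by 0.81, which did not pass its test (limma adjusted p = 0.489).

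Cth, the gene of cystathionine gamma-lyase, had 8.04 and 6.16 in WT and 22.3 and 23.1 in DKO at a site 92 bp upstream of its start. Ruvbl2, which encodes an ATPase of chromatin remodelling complexes, had 4.02 and 6.16 in WT and 15.8 and 14.4 in DKO 51 bp from its start. The other 2 rises were 22007 bp upstream of Etaa1, an activator of the ATR kinase, and in an intron of Ctnnal1. The scaled pileup changes at the 5 sites were from 0.28 to 0.81.

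All 5 of the largest falls were distal, as were most sites, and promoters held 21.1% of the 57 lower sites against 21.0% of all 2310. At the site 5895 bp upstream of Cttnbp2nl the values were 11 and 10.6 in WT and 3.51 and 2.69 in DKO, a log2 change of -1.81 (SE 0.27, limma adjusted p = 0.00186), while its summit pileups were 30 and 30 reads in WT and 27 and 23 in DKO, a scaled change of -0.64 (limma adjusted p = 0.583). Dtnb, the gene of beta-dystrobrevin, had 10.3 and 11.1 in WT and 2.88 and 3.52 in DKO at an intronic site. At the site 52982 bp upstream of Plekhg6 the fold enrichment fell from 30.7 and 23.6 to 9.11 and 8.92, but the scaled pileup change was 0.12, in the other direction.

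The site upstream of Cldn14, a claudin of tight junctions, was lower on both scales. It carries a short tandem repeat with the element GGGTGTGG, the reverse complement of CCACACCC, as shown above. The fold enrichment was 26.3 and 20.8 in WT and 6.95 and 8.16 in DKO. The summit pileup was 70 and 66 reads in WT and 35 and 46 in DKO, although the lowest background was higher in the DKO libraries. The scaled pileup change was -1.14, which did not pass its test (limma adjusted p = 0.0522). At the intronic site of 1700106N22Rik, the last of the 5 falls, the log2 fold enrichment change was -1.48 and the scaled pileup change -0.69.

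The 1 site that passed on the scaled pileup was 14006 bp upstream of Zfp42, the gene of the pluripotency marker Rex1. Its summit pileups were 39 and 41 reads in WT and 18 and 21 in DKO, a scaled log2 change of -1.42 (limma adjusted p = 0.0018). Oct4, Sox2 and Nanog sites overlapped it, and its nearest KLF element, of the form CCACACCC, lay 72.5 bp from the summit, outside the window shown above. Its fold enrichments were 12.1 and 9.69 in WT and 6.15 and 8.50 in DKO, with no overlap between the genotypes, and that change did not pass (-0.58, limma adjusted p = 0.208). The promoter site of Zfp42, 132 bp upstream of the start, had 6.54 and 6.28 in WT and 5.63 and 6.71 in DKO, where the genotypes overlapped.

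Naive pluripotency genes often had Klf4 sites called in every library. Of the 22 genes on this list, 16 had a site called in all 4 libraries within 50 kb of a start for which they were the nearest gene (72.7%), against 6.95% of 22225 protein-coding genes. They were Dppa3, Esrrb, Fbxo15, Fgf4, Klf2, Lefty1, Lefty2, Nanog, Nr5a2, Pou5f1, Prdm14, Sox2, Tbx3, Tfcp2l1 (annotated as Tcfcp2l1), Tdgf1 and Zfp42, with 32 sites. All 32 overlapped a Nanog site, 26 a Sox2 site and 19 an Oct4 site, and 23 held the KLF element. Over all 2310 sites called in all 4 libraries these shares were 92.4%, 61.6%, 43.6% and 68.3%, so the Nanog and KLF counts were near those of any such site. A WT-only site was found at 2 genes of the list and a DKO-only site at 0, where over all protein-coding genes 0.972% and 1.84% had one, so counts this small say nothing particular about the list.

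**Figure D5:**
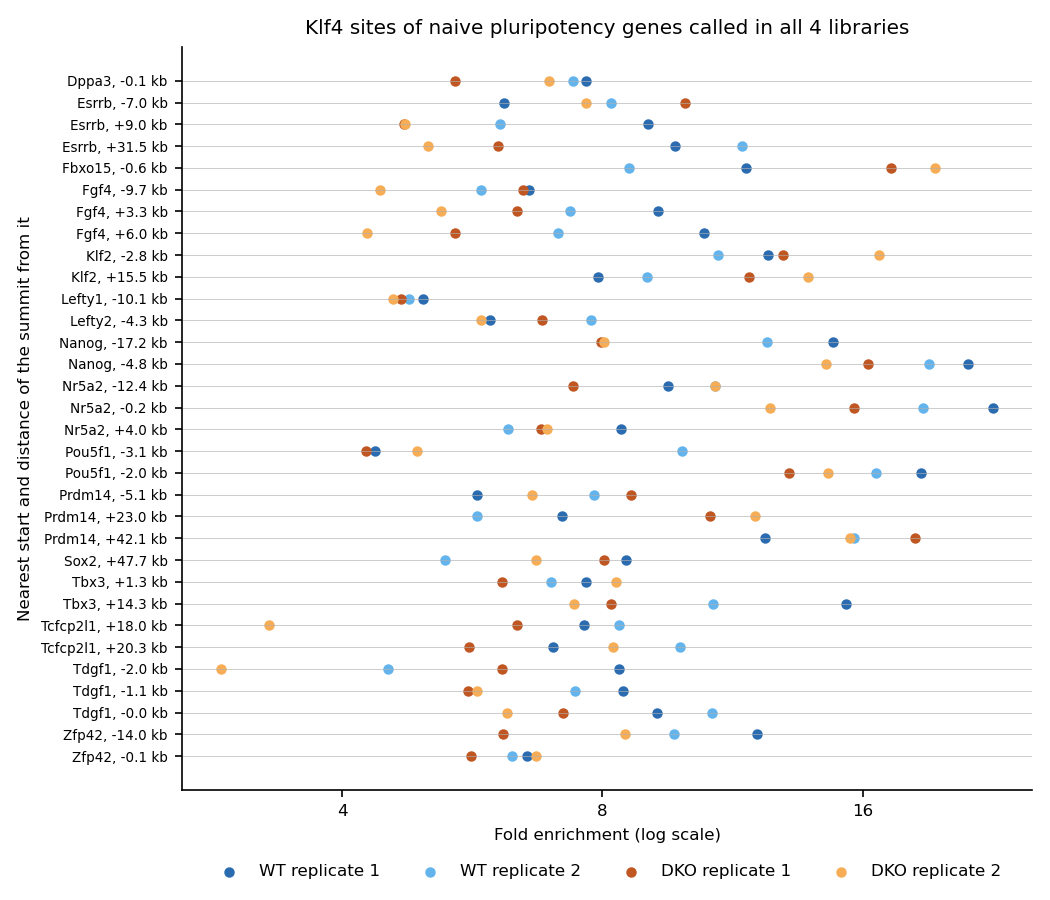
Fold enrichment (x axis, log scale) in each of the 4 libraries at the 32 Klf4 sites of naive pluripotency genes called in all of them (y axis, nearest gene and distance of the summit from its start). WT libraries are blue and DKO libraries orange: both orange points lie below both blue points at 15 sites and above them at 4.

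At Nanog, the distal site 4819 bp upstream of the start had fold enrichments of 21.2 and 19.1 in WT and 16.2 and 14.5 in DKO, with pileups of 47 and 44 reads in WT and 61 and 71 in DKO, a scaled change of 0.16 (limma adjusted p = 0.912). A farther site, 17182 bp upstream, had 14.8 and 12.4 in WT and 7.98 and 8.03 in DKO. In both cases the DKO values lay below the WT values, and neither passed the test (limma adjusted p = 0.393 and 0.0943). A site 5 bp from the Nanog start was called in WT replicate 1 and in both DKO libraries.

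Pou5f1, the gene of Oct4, had its main Klf4 site 1968 bp upstream, with 18.7 and 16.6 in WT and 13.2 and 14.6 in DKO. The nuclear receptor gene Nr5a2, whose promoter site 153 bp upstream of the start holds several KLF elements, had 22.6 and 18.8 in WT and 15.6 and 12.5 in DKO. At both sites the genotypes did not overlap and the difference did not pass (limma adjusted p = 0.453 and 0.21). The Sox2 site 47691 bp downstream had 8.52 and 5.26 in WT and 8.03 and 6.71 in DKO, with overlapping ranges.

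Over the 32 sites, both DKO libraries lay below both WT libraries at 15 and above them at 4. Over all 2310 sites these shares were 30.6% and 21.6%. The median log2 fold enrichment change was -0.29 for the 32 sites, against -0.08 for all. The scaled pileup gave another picture, with 5 sites below and 6 above (21.1% and 16.1% over all sites) and a median change of 0.04. The scaled background at these 32 sites had a median change of 0.51, against 0.19 over all 2310 sites. None of the 32 sites passed the fold enrichment test, the lowest limma adjusted p being 0.0525 at the intronic Esrrb site 31529 bp downstream (9.71 and 11.6 in WT, 6.05 and 5.03 in DKO).

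The 4 sites where both DKO libraries lay above both WT libraries belonged to Fbxo15, Klf2 and Prdm14. Fbxo15, an F-box gene used as an ESC marker, had 11.7 and 8.59 in WT and 17.3 and 19.4 in DKO at its promoter, 637 bp upstream. Klf2, a Krüppel-like factor that acts beside Klf4, had 12.4 and 10.9 in WT and 12.9 and 16.7 in DKO at a site 2775 bp upstream, and 7.91 and 9 in WT and 11.8 and 13.8 in DKO at a site 15478 bp downstream. Prdm14, a repressor of differentiation genes, had 7.18 and 5.73 in WT and 10.6 and 12 in DKO 23040 bp downstream. None of these passed the test, with limma adjusted p-values of 0.0708 to 0.471. Prdm14 also had a WT-only site 993 bp upstream (7.88 and 7.19), and Dppa3 had one 938 bp downstream of its start (6.59 and 7.30).

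Near its own gene, Klf4 had sites called in all 4 libraries only at some distance. Beyond the 50 kb limit, and chosen after its values were seen, a site 54169 bp downstream of the Klf4 start had fold enrichments of 14.4 and 13.4 in WT and 6.96 and 6.63 in DKO, a log2 change of -1.03 (SE 0.26, limma adjusted p = 0.0332). Oct4, Sox2 and Nanog sites overlapped it. Its pileups were 38 and 37 reads in WT and 38 and 40 in DKO, with local backgrounds of 1.72 and 1.84 against 4.6 and 5.18, and the scaled pileup change of -0.32 did not pass (limma adjusted p = 0.816). Leaving out WT replicate 1 or either DKO replicate gave limma adjusted p-values of 0.0629 to 0.157, with changes of about the same size (-0.98 to -1.06). A neighbouring site 56243 bp downstream had 6.22 and 7.01 in WT and 5.69 and 5.03 in DKO.

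The other gene lists gave fewer sites. With 1.43% of all 2310 sites passing as higher and 2.47% as lower, and 6.95% of protein-coding genes having a site called in all 4 libraries, an absence of calls among a few sites says nothing particular about a list. LIF signalling, the pathway that sustains Klf4 in ESCs, had 8 sites called in all 4 libraries at 4 of 12 genes (Il6st, Pim1, Pim3 and Socs3), none of which passed the test. Socs3, the feedback inhibitor of the pathway, had 10.2 and 10.6 in WT and 14.9 and 16.1 in DKO at a site 5591 bp downstream and 15.8 and 12.9 in WT and 11.5 and 9.06 in DKO at a site 6451 bp upstream. Its other sites called in all 4 libraries had log2 changes of -0.36 (34751 bp downstream) and 0.19 (7404 bp upstream). The directions differed among changes that did not pass the test. Pim3 had a DKO-only site 5792 bp downstream and Socs3 a WT-only site 36809 bp downstream.

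The KLF and SP family had 17 such sites at 9 of 25 genes, including 5 sites at Klf13 and 3 at Klf3. None of the 17 passed the test, and both DKO libraries lay below both WT libraries at 6 and above them at 3 in fold enrichment, and at 7 and 1 in scaled pileup. Over all 2310 sites the shares without overlap were 30.6% and 21.6% in fold enrichment and 21.1% and 16.1% in scaled pileup. Klf3, a repressor of the family, had all 3 classes, with promoter sites 61, 282 and 642 bp upstream of annotated starts called in all 4 libraries, a WT-only site 2877 bp upstream and a DKO-only site 35126 bp downstream. The strongest of the family was the promoter site of Sp2, with 21.4 and 19.8 in WT and 10.6 and 15.1 in DKO (limma adjusted p = 0.132).

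Chromatin regulators had 9 such sites at 7 of 26 genes, among them Dnmt3a, Ezh2, Tet1 and Tet2. Dnmt3a, a de novo DNA methyltransferase, carried the strongest of them 10782 bp upstream, with 29.6 and 25.1 in WT and 25.2 and 28.1 in DKO. Tet1, which oxidises methylcytosine, had 2 sites called in all 4 libraries and a WT-only site 3410 bp downstream, and Brd3, an acetyl-lysine reader, had a DKO-only site 1941 bp downstream. Among linker histone and HMGN genes, Hist1h1c alone had such a site.

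Lineage lists had fewer sites than the naive pluripotency list, though a larger share of their genes had a site called in all 4 libraries than the 6.95% of all protein-coding genes. Early lineage specifiers had 6 sites at 4 of 16 matched genes (Gata6, Gsc, Otx2 and Tcfap2c), the epithelial list 3 at 3 of 16, the mesenchymal list 2 at 2 of 12 (Snai1 and Vim), and the cell cycle and p53 list 3 at 2 of 12 (Ccnd3 and Cdkn1a). None of these sites passed the test, and the directions differed within the lists. Epcam, an epithelial adhesion gene, had 4.82 and 5.90 in WT and 9.90 and 9.62 in DKO 34228 bp upstream (limma adjusted p = 0.0664), while the Cldn4 site 1476 bp downstream had 9.19 and 6.22 in WT and 4.82 and 6.84 in DKO. Snai1, a repressor of epithelial genes, had 8.52 and 8.17 in WT and 5.50 and 3.64 in DKO 2052 bp downstream (limma adjusted p = 0.0694), while Vim, an intermediate filament gene, had 5.12 and 5.82 in WT and 6.79 and 8.78 in DKO 1524 bp downstream (limma adjusted p = 0.271). Cldn4, a tight junction gene, had 2 WT-only sites, 38 bp upstream of its start (9.57 and 6.36) and 2600 bp downstream (6.59 and 5.99), on each side of the site called in all 4 libraries.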

How the data were processed

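ChIP-seq was performed by the authors on formaldehyde-fixed, sonicated chromatin with an antibody to Klf4. Per the labels and the study's methods, reads were trimmed with cutadapt 1.16 and mapped with BWA to mm9, duplicates were marked, blacklisted regions were removed, and peaks were called for each library with MACS2 2.1.1.20160309. Which input served each library is not given in the sources used here. The deposited lists hold the fold enrichment (a ratio) and the -log10 p-value and -log10 q-value of each peak. The lowest -log10 q was 2.01, so weaker binding is not listed. Read totals are not given in these lists, and depth is known only through the background solved here.

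Peaks of the 4 Klf4 lists were merged at 1 bp overlap. A site's fold enrichment in a library was its highest peak. Whole summit pileups and local backgrounds were solved from fold enrichment and -log10 p (100% of peaks under a -log10 p of 40, within 0.0005), and a scaled value is divided by the library's lowest background. Genes and starts are protein-coding transcripts of GENCODE vM1 on NCBIM37, the same assembly as mm9. Distances run from the summit to the nearest start, and promoter peaks or sites lie within 1000 bp of one. A factor's site counted as overlapping when called in both libraries of WT or of DKO. Of 9 gene lists, 2 genes were not matched.

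Tests used limma 3.58.1 in R 4.3.3 with Benjamini-Hochberg adjustment at 0.05, on log2(peaks + 0.5) over all 64 libraries (16 antibodies) and on log2 fold enrichment over 2310 sites, and exact permutation tests in scipy 1.17.1. Sequence was read with pysam 0.24.0. The fits were tested on simulated data. Named sites were the 5 strongest called in all 4 libraries, the 6 strongest of each genotype, the 5 largest rises and falls past the threshold, and list genes within 50 kb. Alternatives comprised stricter q (0.0001), fold enrichment of at least 4, equal list lengths, merging within 500 bp, promoters of 2500 bp, other scalings, a replicate block and leaving out each library. The members, gene lists and tests were chosen with earlier results of these data known.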

Additional observations from a re-analysis of the deposited data

How the results depend on the processing

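Peak numbers kept their direction and stayed short of the threshold under every setting that used all 4 libraries. Leaving out 1 Klf4 library gave log2 changes from -0.048 to 0.42 for all peaks, from -0.087 to 0.68 for promoter peaks, from -0.035 to 0.35 for distal peaks and from -0.052 to 0.33 for the difference of promoter and distal changes, all 4 turning negative without WT replicate 2. WT-only sites numbered 1944 and DKO-only sites 2521 when a call in either replicate sufficed, DKO-only sites numbered 355 with lists of equal length, and leaving out a library gave 436 to 1443 and 755 to 1853. Calls on fold enrichment numbered 171 (91 higher, 80 lower) after centring and 1 (0 higher, 1 lower) on scaled pileup, and leaving out a library gave 43 to 187 calls, 14 to 55 higher and 29 to 141 lower. On scaled pileup the Plekhg6 change was 0.12, reversed, and none of the 10 largest changes passed. The cause was not tested. Promoter shares were 27%, 27.6% and 33.9% for sites called in all 4 libraries, WT-only and DKO-only sites with 2500 bp promoters. Alternatives chosen after seeing the data, which left out a Klf4 library, gave promoter shares of 20.7% to 23.4%, 19.3% to 27.8% and 26.4% to 30.2%. For sites called in all 4 libraries, averaging over 4 groups of strength gave 19.1% at promoters, 64.1% with the KLF element, 6.38% with CTCF and 45.9% with Oct4, and requiring the Klf4 summit inside the factor's site gave 5.58% with CTCF.

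Replicate numbers showed no pairing in fold enrichment. Over the 2310 sites the difference between the WT replicates correlated at -0.003 with that between the DKO replicates. Whether libraries of the same number were prepared together cannot be read from this value. With a replicate block the peak number change was 0.19 (limma adjusted p = 0.595), and 36 sites were higher and 73 lower in fold enrichment. The peak lists limit what can be seen, because a site missing from a list may be bound below its threshold.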
